A study of Canis lupus familiaris with 4 samples.

Results

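The 10 genes described here encode the NF-kappaB transcription factors and proteins that act on the same pathway, several of which are NF-kappaB targets themselves: the 5 subunits NFKB1, NFKB2, REL, RELA and RELB, the inhibitors NFKBIA, NFKBIE and TNFAIP3, and the adaptors BIRC3 and TRAF1. They were chosen by gene symbol, and all 10 were found, each as 1 row with a single symbol, among the 11691 genes present in both deposited tables. The cells were CD8+ T cells of healthy mixed-breed dogs, purified from blood mononuclear cells that had been expanded for 14 to 20 days. In the exosome group (2 libraries) they were kept for 48 h with exosomes, small vesicles released by cells, of the dog lymphoma line CLBL-1, which derives from a diffuse large B cell tumour. In the control group (2 libraries) they received the same volume of PBS. Exosome doses of 50, 100 and 200 µg/mL appear in the treatment protocol, whereas the design text names 50 µg/mL for the sequenced cells. Medium with IL-2 (2500 IU/mL) and 2-mercaptoethanol (50 µM) was common to both groups, and every library comes from cells that had been stimulated in this way.

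NF-kappaB factors are dimers that are held inactive in the cytoplasm by IkappaB proteins, or as unprocessed precursors. In T cells, signals from the antigen receptor, from TNF family receptors and from costimulation activate the IkappaB kinase complex, which marks IkappaB for destruction and frees dimers of RELA or REL with p50, the product of NFKB1. A slower, alternative branch processes the NFKB2 precursor to p52, which pairs with RELB. Active dimers induce their own inhibitors, so that transcripts of NFKBIA, NFKBIE and TNFAIP3 are commonly read as feedback genes of the pathway. These roles, and those given with each gene, are known from human and mouse.

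Each pair of libraries, 1 exosome and 1 control culture, came in a table of its own. The tables are named by dog, and the dogs differ in sex by the labels; the columns are named 24 h in the table called pair 1 here and 48 h in that called pair 2, against 48 h in the treatment protocol of every library. Dog, sex, and any difference in exposure time can therefore not be told apart. Values are scaled read counts, which are reads per gene divided by 1 factor per library, with no correction for gene length, so that levels are compared between libraries and not between genes. Over the shared genes the libraries held 9417298 to 12325953 recovered reads, and the members had 60 to 3465 reads per library. Of 8 CD8 T cell markers 7 were measured in every library, with summed values of 2010 and 3120 in the exosome libraries and 2362 and 3260 in the control libraries of pairs 1 and 2. Within these sums CD8B stood at 72.7 and 528 with exosomes, against 73.4 and 479 in the controls. The control of pair 2 held 6.52 times the CD8B value of the control of pair 1, 2.41 times for CD3D and 1.27 times for CD8A. ZAP70 was 1.53 times as high in the control of pair 1. B cell markers, which include transcripts of the cells that gave the exosomes, had 3 of 8 genes measured, with sums of 15.2 and 7.31 in the exosome and 26.4 and 8.70 in the control libraries. No gene is listed at 0 in these tables, and the other 5 B cell markers were not analysed here.

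TNFAIP3 differed most between the groups, RELB, NFKB2 and TRAF1 had higher values with exosomes in each pair and NFKBIA lower ones, BIRC3 differed little, and the other 4 members went in opposite directions in the pairs. None passed the test between exosome and control cultures (limma on log2(value + 1) with the pair as a block, adjusted p of 0.0651 to 0.986 over all genes), where 0.744% of all genes did (0.248% higher). At an unadjusted p under 0.05 limma had 2 members, TNFAIP3 and RELB, both higher with exosomes, beside 5.95% of all genes higher at that level. edgeR and limma-voom on recovered reads likewise called 0 members, as both called 0 of all 11691 genes. Each had 2 members at an unadjusted p under 0.05, beside 1640 of the 11691 genes with edgeR and 1738 with limma-voom, counted in either direction. By contrast, DESeq2 called 1, TNFAIP3, higher with exosomes, beside 0.658% higher among the 9424 genes it gave an adjusted p. With 2 libraries per group, and 1 residual degree of freedom behind each gene's own variance, a p above the threshold does not show that values did not differ.

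The exosome library held the higher value in both pairs for 5 members (NFKB2, RELB, TNFAIP3, BIRC3 and TRAF1), as it did for 27.8% of all genes. It held the lower value in both pairs for 1 member, NFKBIA, against 32.5% of all genes. The other 4 members (NFKB1, REL, RELA and NFKBIE) moved in opposite directions in the pairs, against 39.7% of all genes. When values were scaled to equal recovered totals in place of the authors' factors, where the value of NFKB1 in pair 2 turned from just under to just over its control, 6 members were higher and 1 was lower in both, beside 30.8% and 30.0% of all genes. The median log2 ratio of the members was 0.27 in pair 1 and 0.21 in pair 2, beside -0.02 and -0.03 for all genes. In pair 1, RELB and TNFAIP3 had a ratio of at least 1.5 upwards and NFKBIE one of that size downwards, beside 10.8% and 17.5% of all genes. In pair 2 no member reached it, beside 9.29% of genes upwards and 10.1% downwards. Of the 10 members, 7 lay further from equality in pair 1 than in pair 2, as did 57.8% of all genes.

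**Figure D1:**
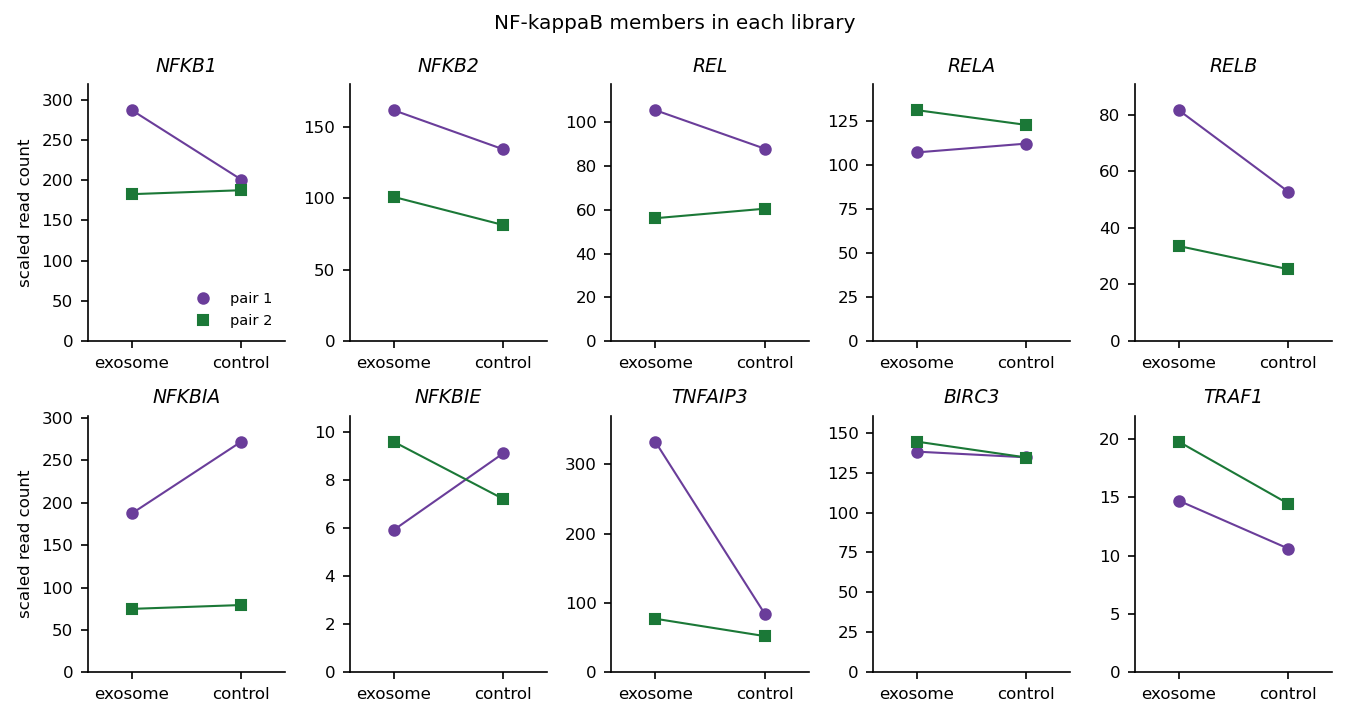
Scaled read counts (vertical axes from 0, 1 scale per gene) of the 10 members in the exosome and control library of each pair, with a line joining the libraries of a pair; circles are pair 1 and squares pair 2. TNFAIP3 separates furthest in pair 1, at 333 against 84.5, and the lines of NFKBIE cross.

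Of the subunits of the rapid, canonical branch, NFKB1, the precursor of p50, stood at 287 and 183 in the exosome libraries of pairs 1 and 2, against 201 and 187 in the control libraries. Its value was thus 1.43 times the control in pair 1 and 0.974 times the control in pair 2. The 95% interval of the ratio, which covers counting error only (exact Clopper-Pearson on the reads of both libraries), was 1.36 to 1.51 in pair 1 and 0.915 to 1.04 in pair 2. RELA, the p65 subunit that carries a transactivation domain, stood at 107 and 131 with exosomes, against 112 and 123 in the controls. Its ratios of 0.955 and 1.07 had counting intervals that include 1 in both pairs, from 0.882 to 1.03 and from 0.991 to 1.15. REL, the subunit most characteristic of lymphocytes, stood at 106 and 56.2 with exosomes and at 88.0 and 60.5 in the controls. The exosome library was 1.20 times its control in pair 1 and 0.928 times in pair 2. For these 3 genes the exosome and control groups overlapped. Their log2 fold changes over both pairs were 0.24 ± 0.24 for NFKB1, 0.01 ± 0.23 for RELA and 0.08 ± 0.23 for REL (SE, n = 2 per group; adjusted p = 0.716, 0.986 and 0.924 by limma). The SE is limma's moderated one, which draws mainly on the variances of all genes (11.4 prior degrees of freedom).

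Both subunits of the alternative branch had higher values with exosomes in each pair, as did 27.8% of all genes, and neither passed the test. Its upstream kinases MAP3K14 and CHUK and its regulator TRAF3 went in opposite directions in the pairs, as did 39.7% of all genes. TRAF2 and BIRC3 were higher in both pairs, and BIRC2 went in opposite directions. NFKB2, which encodes the p100 precursor of p52, stood at 162 and 101 with exosomes, against 135 and 81.4 in the controls. The ratio was close to equal in the pairs, at 1.20 (counting interval 1.12 to 1.29) and 1.24 (1.14 to 1.36). RELB, the partner of p52, stood at 81.7 and 33.6 with exosomes, against 52.8 and 25.4 in the controls. Its ratios were 1.55 (1.39 to 1.71) in pair 1 and 1.32 (1.13 to 1.56) in pair 2. All 4 of these intervals lie above 1, yet the groups overlapped for both genes, because pair 1 had the higher values in both arms. Over both pairs the log2 fold change was 0.29 ± 0.23 for NFKB2 and 0.51 ± 0.23 for RELB (SE, n = 2 per group; limma adjusted p = 0.618 and 0.308). RELB had an unadjusted p of 0.0482 by limma.

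**Figure D2:**
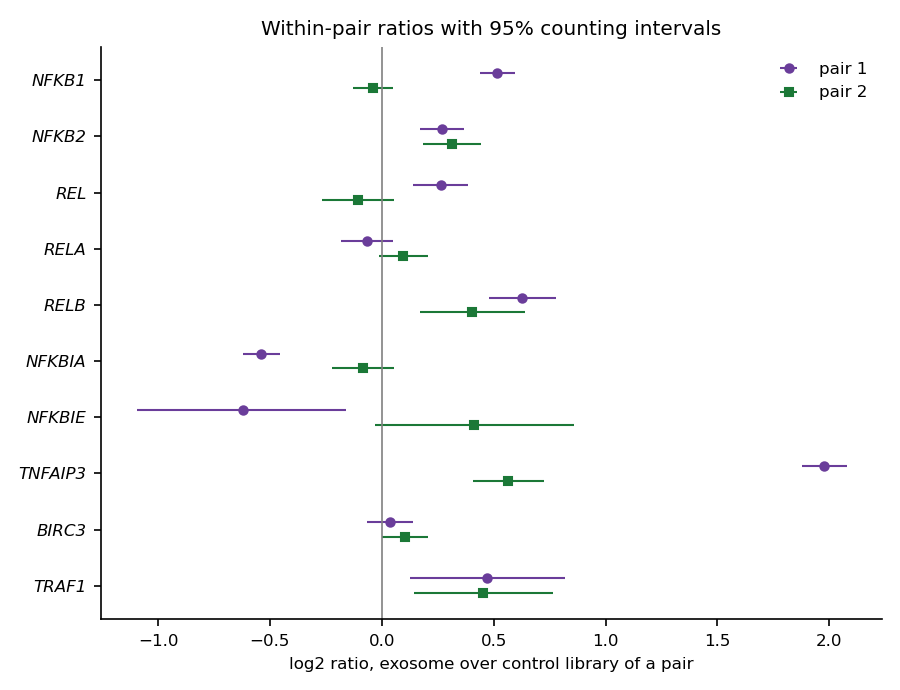
log2 ratio of the exosome over the control library for each member (rows) in pair 1 (circles) and pair 2 (squares), with 95% intervals that cover counting error only. The intervals of NFKB2, RELA, RELB, BIRC3 and TRAF1 overlap between the pairs.

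The inhibitors went different ways. TNFAIP3, also called A20, a ubiquitin-editing enzyme that shuts off signals to the IkappaB kinase complex, stood at 333 and 77.4 with exosomes and at 84.5 and 52.3 in the controls. The exosome library of pair 1 was by far the highest, and the groups overlapped, since the exosome value of pair 2 lay below the control value of pair 1. The ratio was 3.94 in pair 1 (counting interval 3.67 to 4.22) and 1.48 in pair 2 (1.33 to 1.65). In pair 1 it exceeded the ratio of 99.1% of all genes, and in pair 2 that of 89.9%. The log2 fold change was 1.26 ± 0.30 (SE, n = 2 per group), with a limma adjusted p of 0.0651 and a range of 0.000551 to 0.999 over 9 other fits. It passed the threshold with DESeq2 (adjusted p = 0.00839), with a pseudocount of 5 (0.00171) and among genes with a mean value of at least 10 (0.000551). The pseudocount of 5 called 1.73% of all genes higher and 3.49% lower. The mean filter called 2.44% higher and 5.16% lower of the 8631 genes it kept. TNFAIP3 missed the threshold with edgeR (adjusted p = 0.207), with limma-voom (0.161), with edgeR on RLE factors (0.104, with 0.0599% of genes called in each direction) and without the pair block (0.999). It also missed it by limma with values scaled to equal recovered totals (0.316) and with a pseudocount of 0.1 (0.265), neither of which called any gene. Without the exosome library of pair 1, and so without the block, the log2 fold change was 0.22.

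NFKBIA encodes IkappaB-alpha, the inhibitor that is degraded and resynthesised in each round of canonical activation. It stood at 187 and 74.9 with exosomes, against 272 and 79.4 in the controls. The exosome library was thus lower in each pair, by a ratio of 0.689 (counting interval 0.651 to 0.729) in pair 1 and 0.943 (0.856 to 1.04) in pair 2. The interval of pair 2 includes 1, the groups overlapped, and the log2 fold change of -0.31 ± 0.24 did not pass the test (SE, n = 2 per group; adjusted p = 0.597 by limma). NFKBIE, which encodes IkappaB-epsilon, was the member with the fewest reads, at 60 to 122 per library. It stood at 5.92 and 9.59 with exosomes and at 9.10 and 7.22 in the controls, so that it was lower with exosomes in pair 1 and higher in pair 2. Its ratios were 0.650 (0.468 to 0.895) and 1.33 (0.980 to 1.82), and its log2 fold change was -0.09 ± 0.26 (SE; limma adjusted p = 0.922).

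TNFAIP3 and NFKBIA were set against each other within a library, a comparison chosen after their values were seen. The TNFAIP3 value was 1.78 and 1.03 times the NFKBIA value in the exosome libraries, and 0.311 and 0.659 times in the control libraries. Since TNFAIP3 was higher and NFKBIA lower with exosomes in each pair, a higher quotient within each pair followed from those values. Both exosome libraries were also above both controls in this quotient, while for each gene alone the groups overlapped. Since the comparison was chosen after the values were seen, this separation is no test of a group difference. The share of other gene quotients that separate likewise was not computed. The quotient is not corrected for gene length, so its change between libraries can be read but not its size.

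BIRC3 and TRAF1 encode proteins that bind to the cytoplasmic complexes of TNF family receptors, BIRC3 (cIAP2) as a ubiquitin ligase and TRAF1 as an adaptor. BIRC3 stood at 138 and 144 with exosomes, against 135 and 134 in the controls. It differed little anywhere, with ratios of 1.03 (0.956 to 1.10) and 1.07 (0.999 to 1.15). TRAF1 stood at 14.7 and 19.7 with exosomes and at 10.6 and 14.4 in the controls. Its ratios were nearly alike, 1.39 (1.09 to 1.76) in pair 1 and 1.37 (1.11 to 1.70) in pair 2, and both intervals lie above 1. These were the 2 members whose exosome values both lay above both control values, which was so for 12.9% of all genes. Their log2 fold changes were 0.07 ± 0.23 for BIRC3 and 0.43 ± 0.23 for TRAF1 (SE, n = 2 per group; adjusted p = 0.93 and 0.389 by limma).

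**Figure D3:**
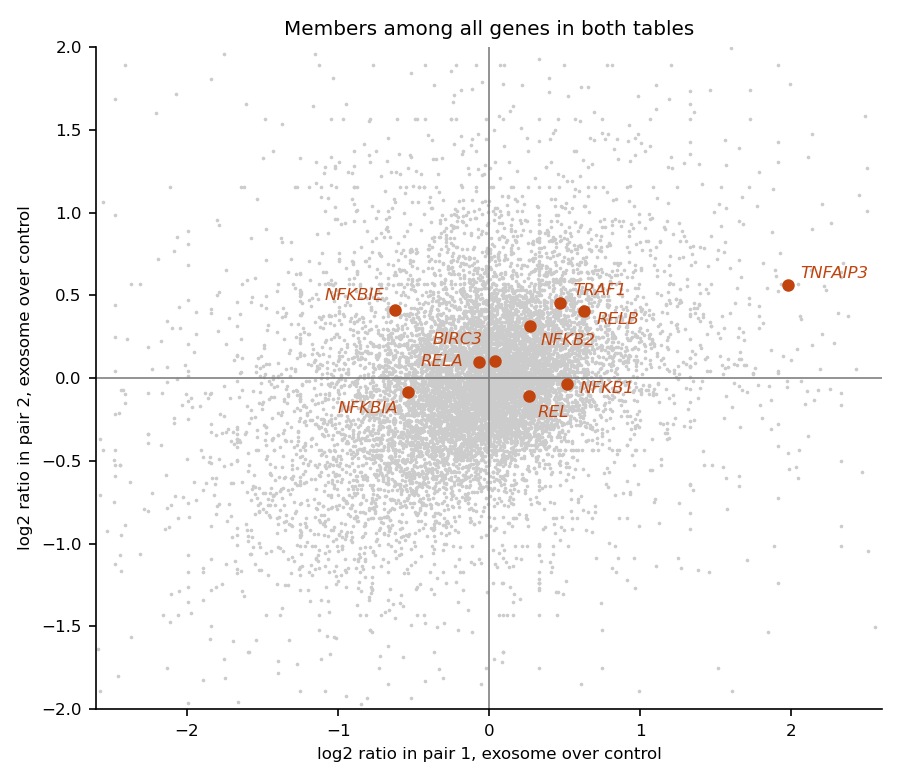
log2 ratio of the exosome over the control library in pair 1 (horizontal) and pair 2 (vertical) for all 11691 genes (grey) and the members (orange); 164 genes lie outside the axes. TNFAIP3 lies to the right, at 1.98 and 0.56, and NFKBIA lies at -0.54 and -0.08, the one member to the left of and below 0 in both pairs.

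In the authors' deposited tables, which set 1 library against 1 and so compare libraries and not conditions, the thresholds were a fold of 1.5 and an unadjusted p of 0.05. They were met by 2 members in pair 1, TNFAIP3 and RELB, both higher. There 11.7% of genes met them, 5.25% higher and 6.49% lower. In the authors' deposited table of pair 2 no member met them, beside 4.94% of genes, 1.99% higher and 2.95% lower. TNFAIP3, with a log2 fold change of 0.56 in the authors' deposited table of pair 2, and NFKBIA, with -0.54 in that of pair 1, stopped short of the fold limit.

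The members also differed between the control libraries of the pairs. NFKBIA stood at 272 in the control of pair 1 and 79.4 in that of pair 2, a ratio of 3.42. RELB was 2.08 times, NFKB2 1.65 times, TNFAIP3 1.62 times and REL 1.45 times as high in the control of pair 1. NFKB1 (1.07 times) and BIRC3 (1.00 times) were close to equal there, and TRAF1 was 1.36 times as high in the control of pair 2. In all, 8 of 10 members were higher in the control of pair 1, against 49% of all genes. For NFKBIA, RELB, NFKB2, REL and RELA the difference between the controls was larger than that between exosome and control in either pair. For TNFAIP3 the control ratio of 1.62 was below the exosome ratio in pair 1 (3.94) and above that in pair 2 (1.48). These are single libraries, and no test applies to them.

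Markers of other cell types were set beside the members. Of 3 CD4 T cell markers all were measured, and their sum was 41.8 and 55.5 in the exosome libraries, against 29.7 and 61.5 in the controls. CD4, the coreceptor that defines these cells, was at 6.41 and 11.0 with exosomes and at 3.22 and 11.6 in the controls, so that it was higher in pair 1, where TNFAIP3 differed most, and not in pair 2. FOXP3, the factor of regulatory T cells, was at 1.28 and 3.15 with exosomes and at 0.863 and 1.06 in the controls (limma adjusted p = 0.223). FOXP3 rests on only 13 and 40 reads with exosomes and 11 and 10 in the controls. CD40LG, the CD40 ligand, was at 34.1 and 41.4 with exosomes and at 25.7 and 48.8 in the controls. Of 5 NK cell markers 4 were measured, and their sum was 1061 and 346 in the exosome libraries, against 635 and 359 in the controls. KLRD1, a receptor chain of NK cells and CD8 T cells, was at 666 and 124 with exosomes and at 213 and 85.0 in the controls, higher in the same libraries as TNFAIP3. NCR1 and NCR3, activating receptors of NK cells, were lower with exosomes, at 10.6 and 32.8 against 33.2 and 42.6, and at 9.96 and 61.7 against 46.9 and 100.0. KLRK1, the NKG2D receptor, which CD8 T cells also carry, was at 374 and 128 with exosomes and at 341 and 132 in the controls. Of 7 monocyte and macrophage markers 1, CD68, was measured, at 2.17 and 1.02 with exosomes and 0.471 and 0.849 in the controls. CD68 rests on only 22 and 13 reads with exosomes and 6 and 8 in the controls. Like FOXP3, it had fewer reads in each library than any member. The part of other cells in the members' values was not tested. In bulk RNA, fewer cells of a type and less RNA per cell cannot be told apart.

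Around the members, 90 further genes of the pathway were listed, of which 75 were measured under an identifier of their own; 4 (RNF31, NFKBID, NFKBIZ and CCL4) share an identifier with another gene and were left out. 1 of the 75 was called lower by limma, beside 0.496% of all genes, and 0 were called higher, and an unadjusted p under 0.05 was reached by 3 that were higher and 13 that were lower, beside 5.95% and 9.96% of all genes. edgeR and limma-voom called 0 of them and 0 of all genes. DESeq2 called 5 of the 71 it gave an adjusted p, all lower, beside 1.14% lower among its 9424 genes. The median log2 fold change was 0.04, against -0.01 for all genes.

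The ligands had the lowest median of the roles. Of 6 measured, 4 were lower with exosomes in both pairs and none was higher in both, beside 32.5% and 27.8% of all genes. The ligands had a median log2 fold change of -0.96. LTA, lymphotoxin alpha, fell to 19.2 and 18.2 in the exosome libraries, against 55.3 and 36.4 in the controls. Its log2 fold change was -1.22 ± 0.24 (SE, n = 2 per group; limma adjusted p = 0.0403), and edgeR did not call it (adjusted p = 0.154). LTB, lymphotoxin beta, which joins with LTA to form the ligand of the receptor that drives the alternative branch, was at 54.6 and 110 with exosomes and 231 and 180 in the controls (limma adjusted p = 0.0526). TNF, the founding ligand of the family, was at 12.1 and 35.0 with exosomes and 31.2 and 59.4 in the controls (adjusted p = 0.0627 by limma). For 3 ligands, LTA, LTB and TNFSF14, the exosome and control values did not overlap, and 14.3% of all genes were likewise separated with the exosome values below. TNFSF14 was at 5.62 and 11.3 with exosomes and 19.3 and 13.2 in the controls (limma adjusted p = 0.159). DESeq2 called LTA and LTB (adjusted p = 0.0103 and 0.00352), whereas edgeR and limma-voom called neither.

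Of 8 receptors measured, 2 were higher and 2 lower in both pairs, beside 27.8% and 32.5% of all genes. TNFRSF18, known as GITR, was at 540 and 12.2 with exosomes, against 170 and 11.3 in the controls. CD27, a costimulatory receptor of naive and memory T cells, was at 29.1 and 47.7, against 83.1 and 50.6. TNFRSF9, or 4-1BB, was at 18.4 and 7.55, against 20.8 and 9.66. The adjusted p-values of these 3 by limma were 0.193, 0.224 and 0.696. The counting interval of the ratio included 1 in both pairs for TNFRSF9, and in pair 2 for TNFRSF18 and CD27.

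Of 14 relay genes, whose products carry the signal from receptors to the IkappaB kinases, 6 were higher and 1 was lower in both pairs. Of all genes, 27.8% were higher and 32.5% lower in both. The median log2 fold change of the relay genes was 0.15. TAB2, an adaptor of the kinase TAK1, was at 384 and 392 with exosomes, against 240 and 347 in the controls, and TRAF5, an adaptor of TNF family receptors, at 135 and 132, against 203 and 155. Of 7 genes of the IkappaB kinase complex and of related or upstream kinases, 2 were higher and 2 lower in both pairs (median 0.10). Beside them stand the same shares of all genes. The catalytic subunit IKBKB was at 103 and 137 with exosomes, against 81.1 and 103 in the controls, and the regulatory subunit IKBKG (NEMO) at 18.3 and 19.2, against 24.2 and 19.5. IKBKE, a related kinase, was at 277 and 193, against 253 and 160. The 2 measured genes of the linear ubiquitin ligase, RBCK1 and SHARPIN, moved in opposite directions in the pairs. The adjusted p-values of the 5 genes with values here ran from 0.423 to 0.759 by limma.

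**Figure D4:**
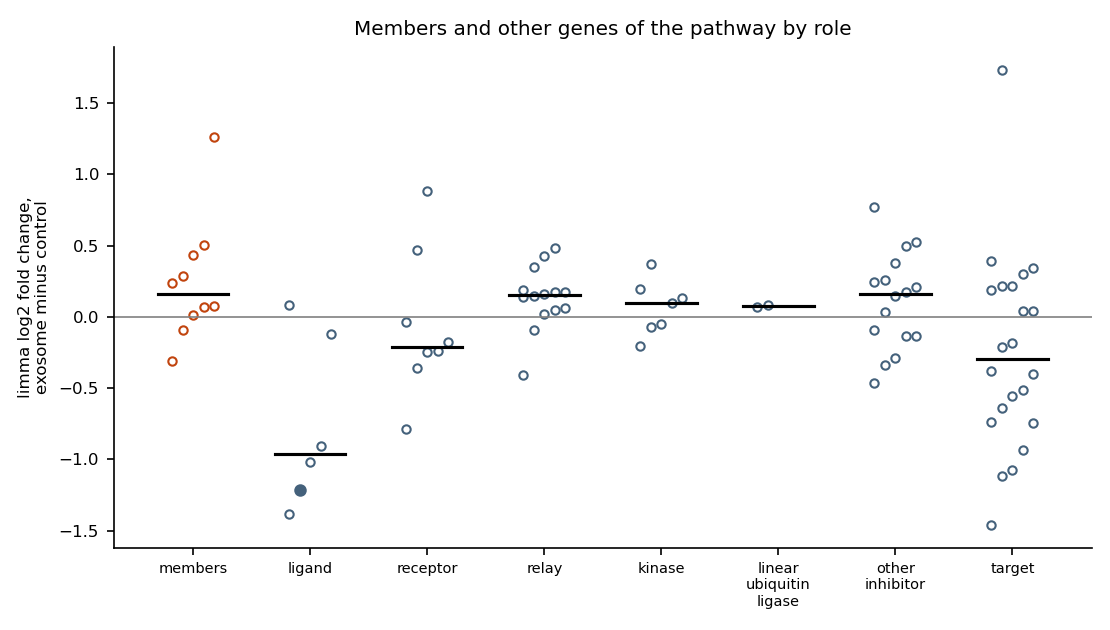
limma log2 fold change (exosome minus control, on the log2(value + 1) scale) of the 10 members and of 75 other pathway genes by role, with each gene as a point and the median of a role as a bar. The filled point is LTA, the one gene called, and the bar of the ligands lies lowest at -0.96.

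Of 16 other inhibitors and negative regulators, 7 were higher and 5 lower in both pairs, beside 27.8% and 32.5% of all genes. The median log2 fold change of these regulators, 0.16, equalled that of the members (0.16). BCL3, an atypical IkappaB protein that works with p50 and p52 in the nucleus, was at 15.7 and 10.1 with exosomes and 9.97 and 7.54 in the controls. N4BP1, a ribonuclease that restrains NF-kappaB responses, was at 253 and 118, against 139 and 104. PDLIM2, a ubiquitin ligase for nuclear RELA, was at 41.3 and 66.9, against 73.8 and 72.1. Their limma adjusted p-values were 0.32, 0.332 and 0.401.

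Of 22 measured target genes, 13 were lower and 7 higher in both pairs, beside 32.5% and 27.8% of all genes, and their median log2 fold change was -0.29. MYC, a growth regulator with many inputs besides NF-kappaB, was at 23.3 and 122 with exosomes and 127 and 176 in the controls. BCL2L1, which encodes the survival protein BCL-xL, was at 24.3 and 40.9, against 66.3 and 73.2. CXCL8, a chemokine that attracts neutrophils, was at 68.4 and 4.17 with exosomes and 5.73 and 3.82 in the controls, and like TNFAIP3 its value was highest in the exosome library of pair 1. Adjusted p-values by limma were 0.0648 for MYC, 0.0526 for BCL2L1 and 0.116 for CXCL8.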

How the data were processed

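The submitters' processing notes name CanFam3.1 and the tools HISAT2 2.1.0, featureCounts 1.6.0, Trimmomatic 0.38, MultiQC and FastQC; their settings, such as stranded counting, are not given there. In RefSeq's annotation of UU_Cfam_GSD_1.0, used for names only, 9 of 10 members were found (not TRAF1) and 4 (NFKB1, NFKB2, NFKBIE and RELA) overlap another gene, whose reads could not be told apart without strand. Per the file headers and log, the authors reduced 30951 genes to 11838, removed 89 and 58 as outliers and compared 1 library with 1 by DEGseq. The deposited gene columns are a signal, read counts over 1 factor per library. A deposited score column, which averages the libraries, was left aside. Deposited log2 values put the exosome library over its control, and deposited p-values compare single libraries.

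Dividing by the smallest step of a column gave whole numbers for 100% of values (tolerance 0.001), so reads were recovered; total depth is unknown. Columns carry hours and no dog number and were assigned to a group only. The pair served as the block because the design text and table names tie every table to a single dog; deviations from the group means correlated at 0.818 within a pair, which 2 pairs make equal by construction. limma 3.58.1 in R 4.3.3 tested log2(value + 1) over 11691 genes without a filter, with Benjamini-Hochberg adjustment at 0.05; on this scale the fold of low genes is understated. edgeR 4.0.16, limma-voom and DESeq2 1.42.0 ran on recovered reads. Ratios within a pair use the deposited values without a pseudocount. Nothing states separate cultures beyond the dogs, so no p-value measures the spread between cultures of 1 dog. In the limma fit with the block, a gene's own spread is how far its ratios in the 2 pairs differ. That spread is drawn mainly towards the variances of all genes (1 residual against 11.4 prior degrees of freedom). The scripts were tested on simulated counts. All members were named, and, per role of the pathway list, up to 3 genes: those called, then the largest changes that kept their sign across pairs, given 50 or more reads in the better-covered library of each pair; 1 gene that this rule names is not reported here. The marker genes, MAP3K14, CHUK, TRAF3, TRAF2, BIRC2 and TNFSF14 were named after their values were seen, and RBCK1 and SHARPIN because they are the measured part of a small complex. Members and lists were chosen with earlier results of these data known.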

Additional observations from a re-analysis of the deposited data

Results flagged for a closer look

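4 members had exosome to control ratios on opposite sides of equality in the pairs, which come from different dogs and carry different hours in their column names; the difference between the pairs was not tested, since each arm of a pair is 1 library. The log2 ratio was 0.52 in pair 1 and -0.04 in pair 2 for NFKB1, and 0.26 and -0.11 for REL. It was -0.07 and 0.1 for RELA, and -0.62 and 0.41 for NFKBIE. The counting interval excluded 0 in pair 1 for NFKB1, REL and NFKBIE, included it in both pairs for RELA, and included it in pair 2 for all 4. Scaling to equal recovered totals turned NFKB1 in pair 2 to 0.04.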

How the results depend on the processing

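The count of called genes depended strongly on the fit. Of all genes, limma with the block called 87. The count was 0 with edgeR and TMM (1640 genes at an unadjusted p under 0.05), limma-voom (1738), values scaled to equal recovered totals (1486), a pseudocount of 0.1 (1571), and no replicate block (209). It was 14 with edgeR and RLE factors, 169 with DESeq2, 610 with a pseudocount of 5 and 656 among genes with a mean value of at least 10. In the fits that leave out 1 library, which are unblocked and so compare different dogs, it was 0 throughout (65 to 368 at an unadjusted p under 0.05). Of the members, 1 (TNFAIP3) was called with DESeq2, a pseudocount of 5 or the mean filter, which leaves NFKBIE untested, and 0 in the other fits, with and without the pair as a replicate block. Of the other pathway genes, 1 was called by limma, 5 by DESeq2, 10 with a pseudocount of 5, 13 with the mean filter and 0 in the other fits, those without 1 library included. The cause of these differences was not tested. In the 9 fits with all libraries no member changed direction, where NFKBIE was absent from the mean filter. Dropping the block or filtering by mean leaves a gene's log2 fold change the same by construction, so these fits could not have changed it. Without 1 library and unblocked, log2 fold changes ran from -0.09 to 0.56 for NFKB1, -0.07 to 0.65 for NFKB2, -0.37 to 0.53 for REL, -0.13 to 0.16 for RELA, -0.12 to 1.13 for RELB, -1.19 to 0.57 for NFKBIA, -0.40 to 0.22 for NFKBIE, 0.22 to 2.30 for TNFAIP3, -0.83 to 0.35 for TNFRSF9, -1.79 to 3.56 for TNFRSF18, -0.13 to 0.52 for IKBKE, -0.03 to 1.07 for N4BP1 and -0.14 to 3.61 for CXCL8. The members' median log2 ratio in pair 2 was 0.29 with values scaled to equal recovered totals, which moved the median of all genes alike, to 0.05; a ratio with a pseudocount of 1 was added after seeing the data and left the medians at 0.26 and 0.21. Among the members, depth limits NFKBIE most.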
